A study of Mus musculus with 6 samples.

Results

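The S3-rule cells were 389 cells of mouse kidney whose transcripts were led by genes used to mark the S3 segment, the last stretch of the proximal tubule. They made up 389 of the 24212 kidney cells kept, of 34034 kidney cells deposited and 58561 cells in the whole series. The cells were chosen by their measured UMIs (unique molecular identifiers, each standing for 1 captured RNA molecule). The S3 sum of Slc22a7, Cyp2a4, Mep1b and Slc7a13 had to be at least 4 UMIs and had to exceed both the S1 sum (Slc5a2, Spp2, Car3, Slc34a3 and Apob) and the S2 sum (Slc22a8, Slc22a6 and Acy3). Each also held no UMI of Ptprc, the pan-leukocyte surface protein, or of Pecam1, an endothelial adhesion molecule, and fewer than 4 UMIs in all of Krt8, F3 and Gdf15, genes of injured tubule. The levels of these 17 genes in the chosen cells are therefore a description of the choice. Cells led in the same way by the S2 sum (8052 S2-rule cells) or the S1 sum (3272 S1-rule cells) served for comparison.

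The study asked whether a microfluidic platform changes which kidney cells are recovered and how stressed they are. The 3 kidney libraries were of the C57BL/6 strain at 12 weeks, given as male in the study's methods, with no genetic change or drug treatment named. The study's reporting summary says that the conditions of a replicate used tissue of the same mouse, so the libraries are not from separate animals. In the 60 min control, minced kidney was digested with type I collagenase in tubes under gentle shaking for 60 min, and then pipetted and vortexed. In the platform libraries, minced kidney was recirculated through a digestion device with the same enzyme, and cells collected at the 15 min interval or at the 60 min interval then passed once through a dissociation and filter device. In interval operation the device is emptied at the first time point and refilled with fresh collagenase, so the 60 min interval holds cells released after the first collection. All suspensions were treated with DNase and red cell lysis buffer and sorted for live cells before droplet sequencing. Each condition was 1 library, so no difference between conditions could be tested. The intervals given are 95% intervals that cover counting error only, and they are too narrow where a few cells hold many of the UMIs.

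The proximal tubule reabsorbs most of what the glomerulus filters, and its cells pass through the segments S1, S2 and S3 with gradual changes in transporters. S3 is the straight part that runs into the outer stripe of the outer medulla, where it secretes organic anions and drugs, takes up the last glucose and amino acids, and metabolises steroids and fatty acids. In mice many S3 genes are expressed at different levels in males and females under androgen control, and the segment is known for its sensitivity to loss of blood flow.

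The chosen cells comprised 72 cells of the 60 min control, 190 of the 15 min interval and 127 of the 60 min interval. A median control cell held 5124 UMIs, one of the 15 min interval 6934.5 and one of the 60 min interval 6176, and their median genes were 1342, 1652.5 and 1656 in that order. Summed over cells, the nonmitochondrial UMIs were 327108, 1111799 and 686458, so the control had the least depth. CPM stands below for the UMIs of a gene per 1000000 of these nonmitochondrial UMIs. Mitochondrial RNA took a median of 23.8, 24.3 and 25.1% of a cell's UMIs, against 9.5, 20.8 and 14.6% in S2-rule cells. The share was alike across the 3 libraries in S3-rule cells, while in S2-rule cells it was highest at 15 min. No barcode was shared between libraries among the chosen cells, although 53 to 211 barcodes were shared by a pair of libraries among all kidney cells.

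Most candidate cells were left out by the S2 sum. Of 4319 kept cells with an S3 sum of at least 4, 3894 (90.2%) were left out because the S2 sum was not below it, 2 because of the S1 sum, 22 because of Ptprc or Pecam1 and 12 because of the injury genes. The S2 sum removed 89.1% of these candidates from the control, 93.3% from the 15 min library and 77.0% from the 60 min library. The median S3 sum of the chosen cells was 13.5, 22 and 21 UMIs for the control, the 15 min and the 60 min libraries, within a range of 4 to 113. Only 10 chosen cells had a sum of exactly 4, and 10 cells with a sum of 3 would otherwise have entered, so the minimum itself touched few cells. Just outside the limit on the S2 sum the levels were lower. Cyp7b1, an oxysterol hydroxylase of S3 that the rule did not use, was at 372 CPM in 247 chosen cells whose S3 sum led by at least 4 UMIs and at 98.3 CPM in the 142 that led by 1 to 3. It was at 19.6 CPM in 267 cells left out by a lead of the S2 sum of 0 to 3 UMIs, and at 2.07 CPM in 3269 cells left out by a larger one. These groups do not hold all of the 3894 cells left out by the S2 sum.

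All 4 rule genes were seen together in 57.1% of the chosen cells. Slc7a13, an aspartate and glutamate transporter of the S3 brush border, was at 1850, 1496 and 1951 CPM in the control, the 15 min and the 60 min library, and 99.0 to 100% of the cells in each library held a UMI. Cyp2a4, a steroid-hydroxylating P450 enzyme, was at 1281, 1673 and 1732 CPM, with a UMI in 87.5 to 93.2% of the cells. The control was lowest for this gene and both platform libraries were close to each other. Slc22a7, an organic anion transporter, was at 455.5, 675.5 and 731.3 CPM, and was seen in 54.2, 81.1 and 74.8% of the cells. Mep1b, the beta subunit of the brush border metalloprotease meprin, was at 510.5, 507.3 and 592.9 CPM. As a measure of free RNA, a UMI of Slc22a7 was found in 0.662, 2.22 and 1.01% of cells with at least 2 Ptprc UMIs, whose median depths were 6487.5, 4828 and 5824.5 UMIs. In the same cells Slc7a13 was found in 3.21, 7.65 and 4.01%, the most of the 4 rule genes. Cyp2a4 was found in 1.42, 3.46 and 1.89% and Mep1b in 0.567, 0.741 and 0.617%. Since 36.1% of the 50-base words of the longest Cyp2a4 transcript also occur in Cyp2a5, part of the Cyp2a4 counts could have been split between these copies.

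The genes lie on different chromosomes of the mm10 build. Slc22a7 spans chr17:46432183-46438457 on the minus strand, Cyp2a4 chr7:26307169-26315088 on the plus strand, Slc7a13 chr4:19818725-19842218 on the plus strand, and Cyp7b1 chr3:18071950-18243338 on the minus strand. All are protein-coding genes.

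The data went partly against the S3 label. The rule fixes the levels of its own genes, so the label was read from genes outside it. Kap, a gene of the proximal tubule, took 0.830 to 38.9% of the nonmitochondrial UMIs of each chosen cell. Kap was also found in 91.9, 97.5 and 94.9% of cells with at least 2 Ptprc UMIs, at 1185, 7525 and 1698 CPM. Its presence alone therefore says little about a cell. Cyp7b1 was seen in a minority of the chosen cells. Most of the other chosen cells were rich in Slc34a1, the phosphate cotransporter NaPi-IIa. They also held Slc22a6, the organic anion transporter OAT1 that is highest in S2. The rule counts this gene in its S2 sum and so bounds its level, which is therefore no outside evidence on the label. The cells are therefore called S3-rule cells throughout. At least 2 Cyp7b1 UMIs were held by 67 cells (Cyp7b1+ cells), 1 UMI by 14 cells and none by 308 cells (Cyp7b1- cells). This division, and the 5 genes and the Slc34a1 limit used to describe it, were chosen after their values were seen and were not tested.

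Upstream sequence is shown for genes that mark the sides of this division, to show what lies before the starts of transcripts that keep apart in these cells. Akr1c18 and Serpina1f were found almost only in Cyp7b1+ cells, Slc22a6 almost only in Cyp7b1- cells, and Cyp2a4, a rule gene, in both. Each line holds the 250 bases before the RefSeq start on the GRCm38.p6 assembly, 5′ to 3′ on the gene's strand. The 3 motifs were searched on both strands without overlap between them: GTTAAT (or ATTAAC), part of the recognition site of the tubule factor HNF1, present in 6.47% of 32544 promoters of this table; AGGTCA (or TGACCT), a core site of nuclear receptors, in 14%; and TGTTCT (or AGAACA), part of the androgen and glucocorticoid receptor site, in 16%. Capitals mark the matches.
Akr1c18, chr13:4150647-4150896, minus strand: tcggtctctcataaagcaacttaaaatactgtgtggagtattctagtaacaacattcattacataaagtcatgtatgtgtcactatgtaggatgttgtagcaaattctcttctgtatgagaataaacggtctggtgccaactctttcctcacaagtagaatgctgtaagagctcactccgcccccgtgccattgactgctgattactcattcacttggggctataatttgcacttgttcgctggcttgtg
Serpina1f, chr12:103695530-103695779, minus strand: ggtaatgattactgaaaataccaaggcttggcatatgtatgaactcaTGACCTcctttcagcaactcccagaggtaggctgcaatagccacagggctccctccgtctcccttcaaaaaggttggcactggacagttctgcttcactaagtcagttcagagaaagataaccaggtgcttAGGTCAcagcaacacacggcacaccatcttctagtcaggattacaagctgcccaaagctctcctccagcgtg
Cyp2a4, chr7:26306942-26307191, plus strand: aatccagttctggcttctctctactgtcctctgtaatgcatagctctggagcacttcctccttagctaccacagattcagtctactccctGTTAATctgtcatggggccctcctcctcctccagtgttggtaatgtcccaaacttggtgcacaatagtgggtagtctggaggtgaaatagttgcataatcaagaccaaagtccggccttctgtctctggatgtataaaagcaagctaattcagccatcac
Slc22a6, chr19:8617746-8617995, plus strand: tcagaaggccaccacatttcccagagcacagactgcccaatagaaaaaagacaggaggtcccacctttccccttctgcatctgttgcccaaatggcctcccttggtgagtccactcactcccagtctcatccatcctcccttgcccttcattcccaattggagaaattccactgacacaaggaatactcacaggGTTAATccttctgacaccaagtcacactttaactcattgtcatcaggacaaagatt
Serpina1f held 2 AGGTCA matches, 72 and 203 bases before the start. Cyp2a4 and Slc22a6 each held 1 GTTAAT match, 160 and 56 bases before it. None of the 3 motifs was found in the Akr1c18 window, and no match was tested for binding. A window of Slc34a1, whose level was high in Cyp7b1- cells, lies inside the longer gene span listed for it and is not printed. It held 2 GTTAAT matches, 61 and 89 bases before its start, and 1 TGTTCT match, 228 bases before it. Of the 8 genes looked up, 5 were matched in the table, and Slc22a7, Slc7a13 and Cyp7b1 were not.

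Cyp7b1+ cells were a distinct minority whose share differed between libraries. In the control 9 of 72 S3-rule cells were Cyp7b1+ (12.5%, 95% Clopper-Pearson interval 5.88 to 22.4). The 15 min library had 22 of 190 (11.6%, 7.4 to 17.0), and the 60 min library had 36 of 127 (28.3%, 20.7 to 37.0). The control and the 15 min interval overlapped almost fully, and the 60 min interval was the highest. With any Cyp7b1 UMI counted, the shares were 18.1, 14.2 and 32.3%, and after each cell was thinned to 2000 UMIs they were 17.2, 11.3 and 26.1%, with 8, 4 and 8 shallower cells left out. Background was far lower. A Cyp7b1 UMI was found in 0.189 and 0.485% of cells with at least 2 Ptprc UMIs in the control and 60 min libraries, and in 0 of 405 at 15 min, which allows a share of up to 0.741% (a limit of 3 counts, as for the other shares of 0). It was found in 2, 2.62 and 4.25% of cells with at least 2 Pecam1 UMIs, and in 0 of 575, 1797 and 900 S1-rule cells, which allows up to 0.522, 0.167 and 0.333%. Of the 112 kept kidney cells with at least 2 Cyp7b1 UMIs, 67 (59.8%) were S3-rule cells, 20 were S2-rule cells, none were S1-rule cells, 14 held a Ptprc or Pecam1 UMI and 11 met no rule.

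Depth differed within libraries and in both directions. Cyp7b1+ cells had a median of 10684 UMIs and 2449 genes in the control against 4878 UMIs and 1102 genes in Cyp7b1- cells. At 15 min the medians were 6388 against 6942 UMIs, and at 60 min 5042.5 against 6902.5, so Cyp7b1+ cells were the deeper ones in the control only. Over all libraries the medians were 5986 and 6297.5 UMIs. Mitochondrial RNA took a median of 18.9 against 26.1% in the control and of 23.9 against 24.8% over all libraries. The part of depth in the comparisons of these sides was not tested. Kap took 13.5% of the nonmitochondrial UMIs of Cyp7b1+ cells and 19.9% of those of Cyp7b1- cells.

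A set of genes outside the rule was nearly exclusive to Cyp7b1+ cells. Akr1c18, an aldo-keto reductase that acts on progesterone (chr13:4132615-4150654), was at 529.8, 508.6 and 397.4 CPM in the Cyp7b1+ cells of the control, the 15 min and the 60 min library, and no UMI was found in the Cyp7b1- cells of any library. Serpina1f, a serpin (chr12:103688044-103695529), was at 529.8, 786.7 and 611.8 CPM against 0, 4.19 and 5.86. Both genes were separated in every library by more than the counting error. Across libraries together, Serpina1f was 160-fold higher (77 to 404), Cryab, a small heat shock chaperone, 48.7-fold higher (37.1 to 64.9), and Akr1c18 had 161 against 0 UMIs.

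Other genes followed the same side. Mettl7a2, a methyltransferase-like protein, was at 487.7 CPM in Cyp7b1+ and 4.70 in Cyp7b1- cells, Kcnk1, a potassium channel, at 332.8 and 2.94, and the water channel Aqp4 at 206.6 and 1.18. Kng2, a kininogen, was at 370.1 and 10.6 CPM, and Apob, a lipoprotein that the rule placed in the S1 sum, at 453.3 and 12.9. Serpina1d was at 1130 and 35.3 CPM, but 48% of its 50-base words also occur in other Serpina1 genes, so its counts are uncertain, while Serpina1f and Akr1c18 shared none with the near copies examined. At higher levels, Napsa, the aspartic protease napsin A, was at 17174 and 5834 CPM, Gstm1, a glutathione transferase, at 2186 and 508.9, and Gclc, the catalytic subunit that starts glutathione synthesis, at 757.4 and 171.6.

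The opposite side was as sharp. Slc34a1 (chr13:55398187-55415592) was at 31.2, 206.6 and 277.5 CPM in Cyp7b1+ cells and at 6325, 6036 and 6796 CPM in Cyp7b1- cells of the control, 15 min and 60 min libraries. Slc22a6 (chr19:8618039-8628299), which the rule used in the S2 sum, was at 0, 7.95 and 25.2 CPM against 1111, 1034 and 1025. These summed levels lay far apart in every library for both transporters. Single cells of the sides did overlap, as given below for Slc34a1, and some Cyp7b1- cells held no Slc22a6 UMI. Ugt2b38, a glucuronosyltransferase, was at 54.5 CPM in Cyp7b1+ and 2619 in Cyp7b1- cells, Cyp4b1 at 223.8 and 4925, the xenobiotic P450 enzyme Cyp2e1 at 11.5 and 716.3, Ly6a at 68.9 and 1855, and Ttr, the thyroid hormone carrier transthyretin, at 17.2 and 551.2. Car4, a membrane carbonic anhydrase, was found only in Cyp7b1- cells among these sides, at 382.5 CPM.

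**Figure D1:**
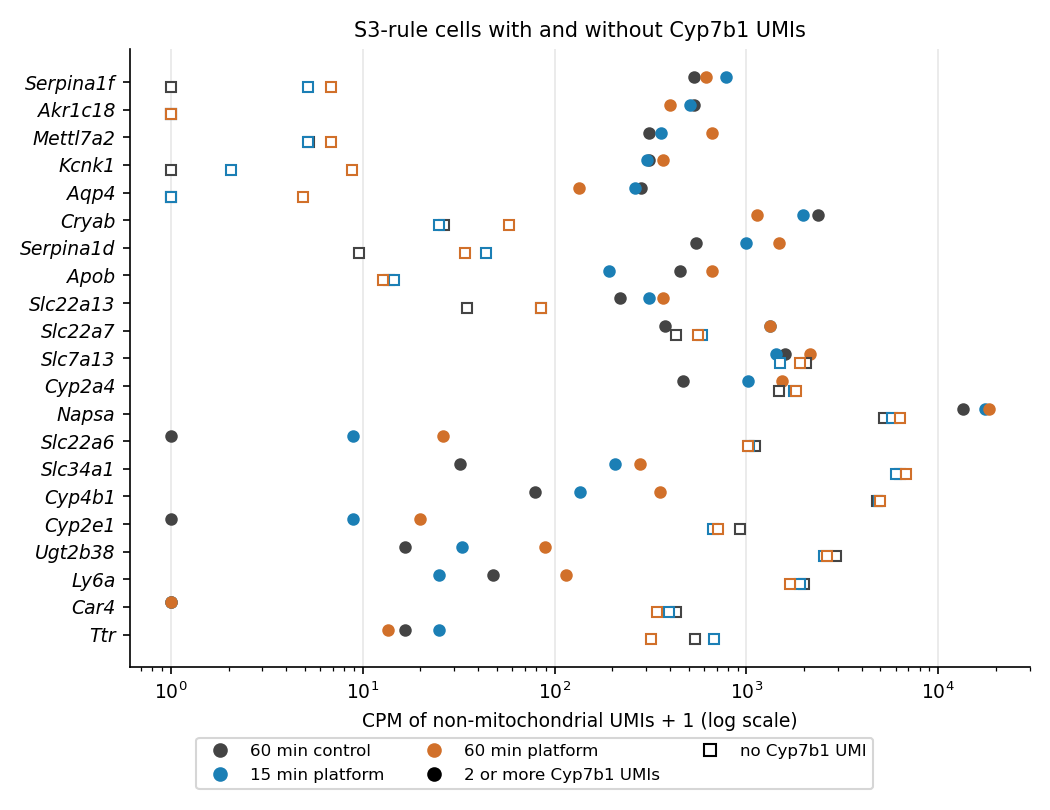
Levels (CPM + 1, log axis) of 21 genes in S3-rule cells with at least 2 Cyp7b1 UMIs (filled circles) and with none (open squares), 1 symbol per library and colored by library. Serpina1f to Slc22a13 lie higher in the filled circles and Slc22a6 to Ttr higher in the open squares in every library, while Slc7a13 lies close together.

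The rule genes themselves did not follow one side. Slc7a13 was at 1785 CPM in Cyp7b1+ cells and 1698 in Cyp7b1- cells, a ratio of 1.05 (0.962 to 1.15). Cyp2a4 was lower in Cyp7b1+ cells, at 1148 against 1742 CPM, whereas Slc22a7 was higher, at 1156 against 555.3, and Mep1b was higher, at 1076 against 414.9. Acy3, an aminoacylase that the rule counted for S2, was at 2017 and 1830 CPM. Of 2309 genes with a mean of at least 50 CPM over both sides, 183 (7.93%) were 2-fold or more higher in Cyp7b1+ cells and 114 (4.94%) 2-fold or more lower.

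Cell by cell, the division was described with genes picked from its own ranking. The counts below therefore describe that choice and are not added support for it. Of the 67 Cyp7b1+ cells, 62 held at least 2 UMIs of Akr1c18, Serpina1f, Mettl7a2, Kcnk1 and Aqp4 summed, against 7 of the 14 cells with 1 Cyp7b1 UMI and 6 of the 308 Cyp7b1- cells. Slc34a1 reached 1000 CPM in 5 of the 67, 4 of the 14 and 302 of the 308 cells. The median cell held 0 CPM of Slc34a1 among Cyp7b1+ cells and 5821 CPM among Cyp7b1- cells. Both features met in 4, 1 and 3 cells, so 8 of 389 cells were of mixed kind.

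**Figure D2:**
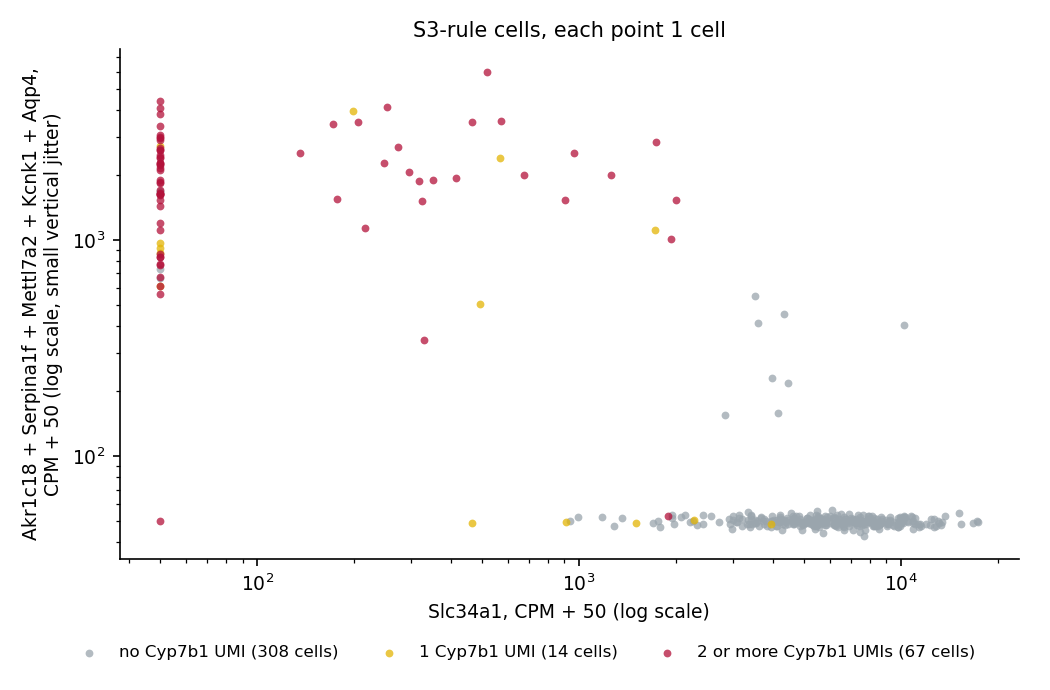
Each point is 1 S3-rule cell, with Slc34a1 on the horizontal axis and the sum of Akr1c18, Serpina1f, Mettl7a2, Kcnk1 and Aqp4 on the vertical axis (CPM + 50, log axes). The 308 Cyp7b1- cells form a band at the lower right and most of the 67 Cyp7b1+ cells lie at the upper left, with few cells between.

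Relative to S2-rule cells of the same libraries, more genes were past 2-fold in Cyp7b1+ cells than in Cyp7b1- cells. At a mean of at least 50 CPM, 113 of 2444 genes were 2-fold or more higher and 98 lower in Cyp7b1+ cells in every library. For Cyp7b1- cells the numbers were 18 and 19 of 2286 genes. The Cyp7b1+ sums hold 9, 22 and 36 cells of the control, 15 min and 60 min libraries, against 59, 163 and 86 Cyp7b1- cells. Smaller sums pass 2-fold more easily by counting error, and the part of group size in these counts was not tested.

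Taken as one group, S3-rule cells carried several S3 genes outside the rule at higher levels than S2-rule cells. Cyp7b1 was at 238.5, 180.8 and 493.8 CPM in the S3-rule cells of the control, 15 min and 60 min libraries against 0.795, 0.889 and 6.01 CPM in S2-rule cells, which is 300-fold (150 to 680), 203-fold (136 to 316) and 82.2-fold (60.6 to 114) higher. Slc22a13, a urate and nicotinate transporter, was at 73.4, 118.7 and 154.4 CPM, or 55.4-, 34- and 36.3-fold higher. Slc22a19, an organic anion transporter, was at 119.2, 133.1 and 236.0 CPM, or 42.2-, 19.4- and 28.1-fold higher. All 3 genes were far above S2-rule cells in every library, and for each the 60 min interval held the highest level in both kinds of cell.

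Among abundant genes the differences were smaller. Napsa was at 6964, 7349 and 9132 CPM, which was 5.47-fold (5.23 to 5.72), 2.91-fold (2.84 to 2.97) and 5.90-fold (5.72 to 6.08) the level in S2-rule cells. Tmigd1, an adhesion molecule of the brush border, was 4.21-, 2.55- and 4.24-fold higher, and Agt, angiotensinogen, 11.5-, 4.49- and 8.80-fold higher. Kap, the kidney androgen-regulated protein, was at 166006, 199141 and 173303 CPM and was 2.63-, 1.70- and 2.70-fold higher. The fold was smallest at 15 min for each of these 4 genes, where S2-rule cells held more of the transcript.

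Over all genes with a mean of at least 10 CPM, 75 of 6241 (1.2%) were 2-fold or more higher in S3-rule cells in every library and 77 (1.23%) were lower. At a mean of at least 50 CPM, 29 of 2381 (1.22%) were higher and 20 (0.84%) lower. Against this background 6 of the 15 measured S3 markers outside the rule were higher and none lower, namely Cyp7b1, Slc22a13, Slc22a19, Agt, Napsa and Tmigd1, with a median of 1.48 on the log2 scale where all genes had -0.24. The sum of these 15 markers was 14848, 15377 and 17566 CPM in S3-rule cells and 7552, 9192 and 7862 CPM in S2-rule cells. With the Cyp7b1- cells alone, 36 genes were higher in every library in place of 75.

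The largest differences upward included Cyp7b1, Serpina1d, Serpina1f, Slc22a13, Slc22a19 and Cryab besides 3 rule genes. Cryab was at 528.9, 282.4 and 320.5 CPM, or 46.4-, 39.2- and 12.8-fold above S2-rule cells. Most UMIs of Serpina1f and Cryab were in the Cyp7b1+ cells. Among enzymes, Cyp51, a step of sterol synthesis, was 6.53-, 3.40- and 5.92-fold higher, Cyp4a10, a fatty acid omega-hydroxylase, 4.94-, 2.82- and 5.68-fold higher, and Crot, a peroxisomal carnitine acyltransferase, 3.48-, 2.70- and 2.89-fold higher. Mme, the peptidase neprilysin, was 5.01-, 2.83- and 4.12-fold higher, and Slc15a2, a peptide transporter, 4.26-, 2.54- and 3.48-fold higher.

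Of 12 measured S1 markers outside the rule, 4 were lower than in S2-rule cells in every library (Slc5a12, Gatm, Slc7a8 and Slc6a19) and none higher. Gatm, which makes the creatine precursor guanidinoacetate, was at 12.2, 49.5 and 61.2 CPM against 703.2, 542.7 and 925.8 CPM in S2-rule cells, ratios of 0.0174 (0.00474 to 0.0445), 0.0912 (0.0686 to 0.119) and 0.0661 (0.0476 to 0.0894). The control value rests on 4 UMIs. Outside that list, Gsta2, a glutathione transferase, had ratios of 0.165, 0.253 and 0.16, Miox, which oxidises myo-inositol, 0.282, 0.382 and 0.272, and Ass1, an enzyme of arginine synthesis, 0.299, 0.440 and 0.330. Slc22a8, an organic anion transporter that the rule counted for S2, had ratios of 0.351, 0.150 and 0.186. Slc34a1 stood near S2-rule cells at ratios of 1.53, 0.921 and 1.35, as did Slc22a6 at 1.16, 0.696 and 0.952. Both averages are over Cyp7b1+ and Cyp7b1- cells, which differed in these genes as given above.

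**Figure D3:**
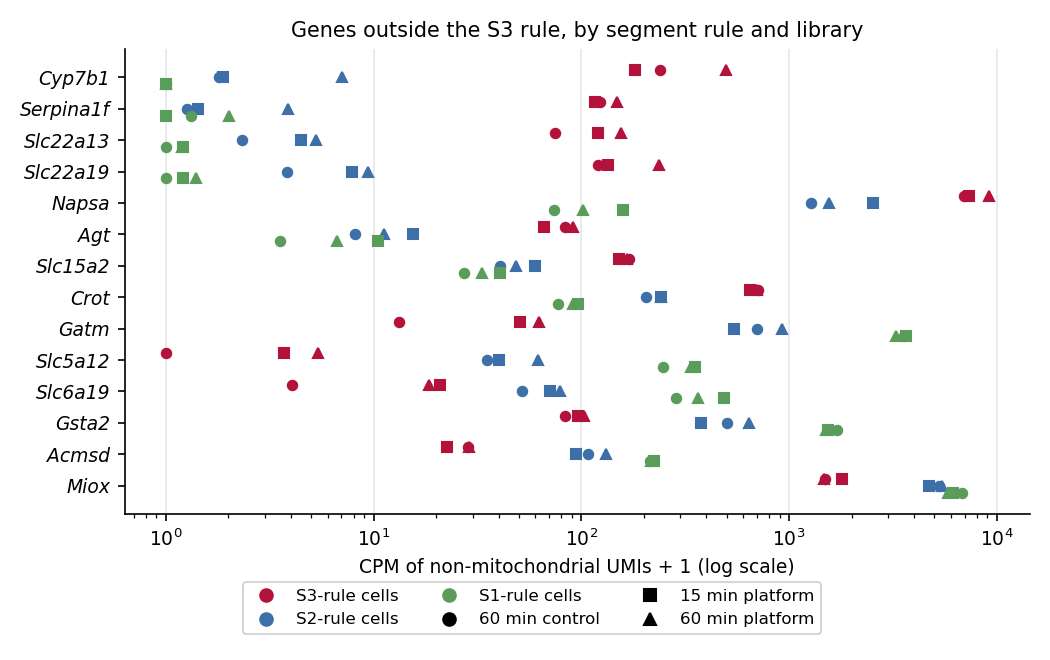
Levels (CPM + 1, log axis) of 14 genes outside the S3 rule in S3-rule, S2-rule and S1-rule cells (colors), with 1 symbol shape per library. Cyp7b1 to Crot lie highest in S3-rule cells in every library and Gatm to Miox lowest.

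By function, the lists are given as counts past 2-fold against S2-rule cells in every library, where 1.2% of all genes were higher and 1.23% lower. Of 15 measured organic ion transporters 2 were higher (Slc22a13 and Slc22a19) and none lower. Of 14 amino acid and peptide transporters Slc15a2 was higher, and Slc6a19 and Slc7a8, neutral amino acid carriers of the early tubule, were lower. Of 13 sugar, lactate and phosphate transporters only Slc5a12, a lactate transporter, was lower. Of 10 brush border peptidases Mme was higher and Dpep1, a dipeptidase, lower, and of 16 P450 and Ugt enzymes Cyp4a10, Cyp7b1 and Cyp51 were higher and Cyp2d26 lower. Among 20 fatty acid and peroxisome enzymes Crot was higher, among 19 glutathione and antioxidant genes Gsta2 was lower, and none of 11 gluconeogenesis genes or 10 endocytosis genes passed in either direction. Of 12 androgen-responsive kidney genes only Cyp7b1 passed. Against S1-rule cells, 347 of 6708 genes (5.17%) were higher and 547 (8.15%) lower in every library, and 13 of the 15 S3 markers outside the rule were higher and none lower.

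S3-rule cells were a small part of every library, and the share depended on the denominator. Among kept cells the control held 1.22% of them (0.958 to 1.54). The 15 min library held 2.27% (1.957 to 2.61), and the 60 min library 1.28% (1.07 to 1.52). The 15 min interval was 1.04 percentage points above the control (0.609 to 1.46) and the 60 min interval 0.0549 points above it (-0.319 to 0.402). Of S1-, S2- and S3-rule cells together, they were 2.78% (2.18 to 3.48), 2.82% (2.44 to 3.25) and 5.32% (4.45 to 6.30). On this denominator the 15 min interval was within 0.0452 points of the control (-0.751 to 0.752) and the 60 min interval was 2.54 points above it (1.45 to 3.67). Thus the 15 min library was highest among all kept cells and the 60 min library among cells of the 3 segment rules. Cells with a Ptprc or Pecam1 UMI numbered 1927, 923 and 5387 of the kept cells and S2-rule cells 1946, 4746 and 1360, and the part of these mixtures in the shares was not tested. With a mitochondrial limit of 20%, the 60 min share of kept cells was 0.741 times the control in place of 1.05 times.

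**Figure D4:**
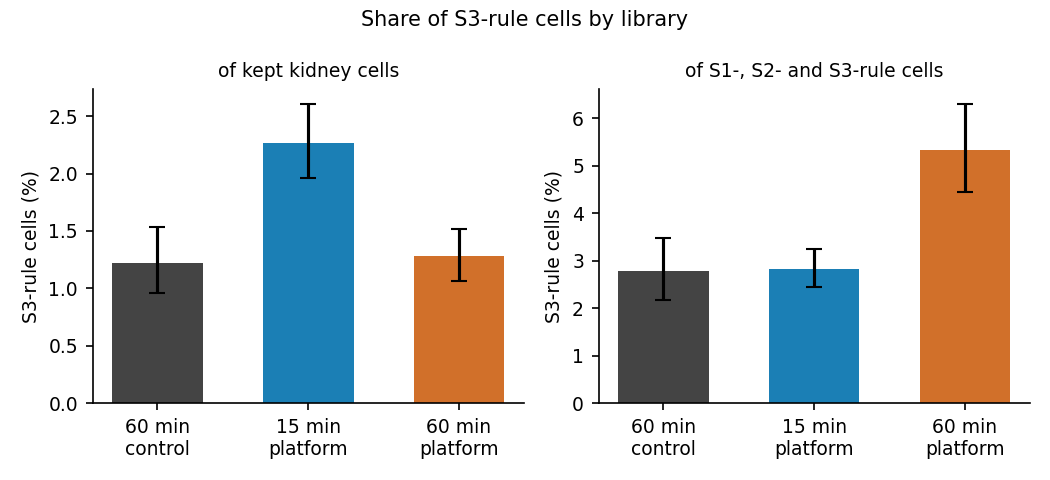
Share of S3-rule cells (%) in each of 3 libraries, among kept cells and among S1-, S2- and S3-rule cells, with 95% Clopper-Pearson intervals. Among kept cells the 15 min interval is highest at 2.27%, and among segment-rule cells the 60 min interval is highest at 5.32%.

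The comparison of digestion conditions within S3-rule cells gave few large differences among well measured genes. At a mean of at least 50 CPM, 12 of 2277 genes (0.527%) were 2-fold or more higher and 28 (1.23%) lower at 15 min than in the control, and 32 (1.41%) were higher and 13 (0.571%) lower at 60 min. At a mean of at least 10 CPM the numbers were 246 (4.03%) and 506 (8.3%) of 6099 genes at 15 min and 451 (7.39%) and 261 (4.28%) at 60 min. In the control 3 UMIs amount to 9.17 CPM, so many of the latter rest on a handful of UMIs. These calls use CPM + 1, and the ratios given with intervals use CPM.

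Most S3 markers outside the rule were within 2-fold across conditions. None of these 15 markers was past 2-fold at 15 min, where 4.03% of all genes were higher and 8.3% lower. At 60 min Cyp7b1, Slc22a13 and Slc5a8 were past 2-fold higher, where 7.39% of all genes were. The list medians were 0.13 at 15 min and 0.28 at 60 min on the log2 scale. Acsm3, an acyl-CoA synthetase, was at 654.2, 523.5 and 524.4 CPM, and Slc3a1, the partner subunit of Slc7a13, at 369.9, 399.4 and 447.2. Slc5a8, a monocarboxylate transporter, was at 177.3, 233.9 and 356.9 CPM, 2.01-fold (1.51 to 2.73) higher at 60 min than in the control. Slc22a13 was 2.11-fold (1.34 to 3.43) higher at 60 min. Its control level rests on 24 UMIs.

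Genes of the Cyp7b1+ cells were among those higher at 60 min, where those cells were more frequent. Cyp7b1 was 2.07-fold (1.62 to 2.68) and Serpina1d 2.51-fold (1.85 to 3.46) the control level at 60 min, and Kng2 was 2.76-fold (1.59 to 5.15). Slc9a8, a sodium-proton exchanger, was at 48.9, 54.0 and 139.8 CPM, 2.86-fold (1.67 to 5.20) the control. Within Cyp7b1+ cells alone, the 60 min interval was 2.71-fold (1.89 to 3.98) for Serpina1d, 2.24-fold (1.23 to 4.41) for Kng2 and 5.75-fold (2.35 to 18.3) for Slc9a8. The control side of these within-group ratios holds 9 cells, which were the deeper ones, as given above. Cryab went the other way within Cyp7b1+ cells, at 2353, 1971 and 1129 CPM, with a ratio of 0.480 (0.384 to 0.6) at 60 min. Apob was at 100.9, 35.1 and 177.7 CPM in all S3-rule cells, a ratio of 0.348 (0.213 to 0.571) at 15 min, and at 12.8, 13.6 and 11.7 CPM in Cyp7b1- cells.

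Other genes differed from the control as well, and Gstp1 did so within Cyp7b1- cells. Gstp1, a glutathione transferase, was at 58.1, 142.1 and 170.4 CPM, 2.45-fold (1.52 to 4.17) the control at 15 min and 2.93-fold (1.80 to 5.05) at 60 min. In Cyp7b1- cells alone these ratios were 2.59 (1.47 to 5.00) and 3.49 (1.95 to 6.79). Copb2, a coat protein of Golgi vesicles, was at 33.6, 75.6 and 102.0 CPM in all S3-rule cells. For Gstp1 and Copb2 both platform libraries lay above the control. Ttr, which was higher in Cyp7b1- than in Cyp7b1+ cells, was at 409.7, 596.3 and 238.9 CPM in all S3-rule cells. Its ratio was 1.46 (1.21 to 1.77) at 15 min and 0.583 (0.461 to 0.738) at 60 min. In the control it was seen in 17 of 72 cells and 1 cell held 33.6% of its UMIs.

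Among all S3-rule cells, several early response genes were lowest at 15 min, but this depended on the cells kept. Jun was at 177.3, 65.7 and 349.6 CPM in the control, the 15 min and the 60 min library, ratios of 0.370 (0.259 to 0.532) and 1.97 (1.48 to 2.67). Fos was at 100.9, 25.2 and 59.7 CPM, ratios of 0.250 (0.145 to 0.426) and 0.592 (0.365 to 0.966). Atf3, a stress transcription factor, had 20 UMIs in the control, none at 15 min and 26 at 60 min. Against a floor of 3 UMIs it was at least 22.7-fold lower at 15 min. These RNAs came from few cells: Jun was seen in 15 of 72 control cells, where 1 cell held 51.7% of the UMIs, and 15 of the 20 control UMIs of Atf3 were in 1 cell. With only the cells of at most 20% mitochondrial UMIs (30, 63 and 36 cells), Jun turned higher at 15 min, at 0.83 on the log2 scale, and Fos was at -0.25, no longer past 2-fold. Of the 10 measured stress genes that the study listed, 5 were past 2-fold lower at 15 min (Atf3, Egr1, Jun, Fos and Fosb), where 8.3% of all genes were, with a list median of -0.85, and at 60 min Junb alone was past 2-fold, higher, with a median of 0.10. The study displayed that list for these libraries, so it is not taken as independent evidence of direction. Of 17 measured heat shock and other early genes, 9 were lower and none higher at 15 min (8.3 and 4.03% of all genes), and 7 were higher and 1 lower at 60 min (7.39 and 4.28%). Hspa1b, an inducible chaperone, was among the 9 and the 7. It had 3, 0 and 51 UMIs and reached a mean of 10 CPM only through the 60 min library. Ier3 was also among both, with 0 UMIs at 15 min and 22 at 60 min. The filter helped to set the direction of such genes, so these counts are not read against the shares of all genes. At a mean of at least 50 CPM the 60 min median of the heat shock and early genes was slightly below the control, as given in the last section. At the 20% limit the 15 min medians of both lists lay near 0, at 0.000737 (log2) for the stress genes and 0.00439 for the other list, and without the upper limit of genes they were -0.20 and -0.41.

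A few cells rich in Malat1, a nuclear long noncoding RNA (chr19:5795690-5802672), held most of its UMIs and of some other RNAs. Malat1 was at 12552, 1595 and 17027 CPM, yet the median S3-rule cell held 1, 1 and 2 UMIs. Only 7, 3 and 11 cells held at least 30 UMIs, a limit chosen after the values were seen, while 98.55 to 99.2% of the cells with at least 2 Ptprc or Pecam1 UMIs did. Without these 21 cells Malat1 was at 154, 276.6 and 425.6 CPM, so the 15 min level went from the lowest to 1.80-fold the control. Neat1, another nuclear noncoding RNA, went from a ratio of 0.172 to 1.33 at 15 min, and Tmsb4x, an actin-binding peptide, from 4.62 to 2.46 at 60 min. Jun and Fos stayed lowest at 15 min without them, with ratios of 0.139 (0.0652 to 0.282) and 0.0296 (0.00575 to 0.0963), though the latter rests on 3 and 27 UMIs. The number of genes lower at 15 min dropped from 506 to 272. Of the 21 cells 3 were Cyp7b1+. Kap was at 78860 CPM in these cells and at 191948 CPM in the others.

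**Figure D5:**
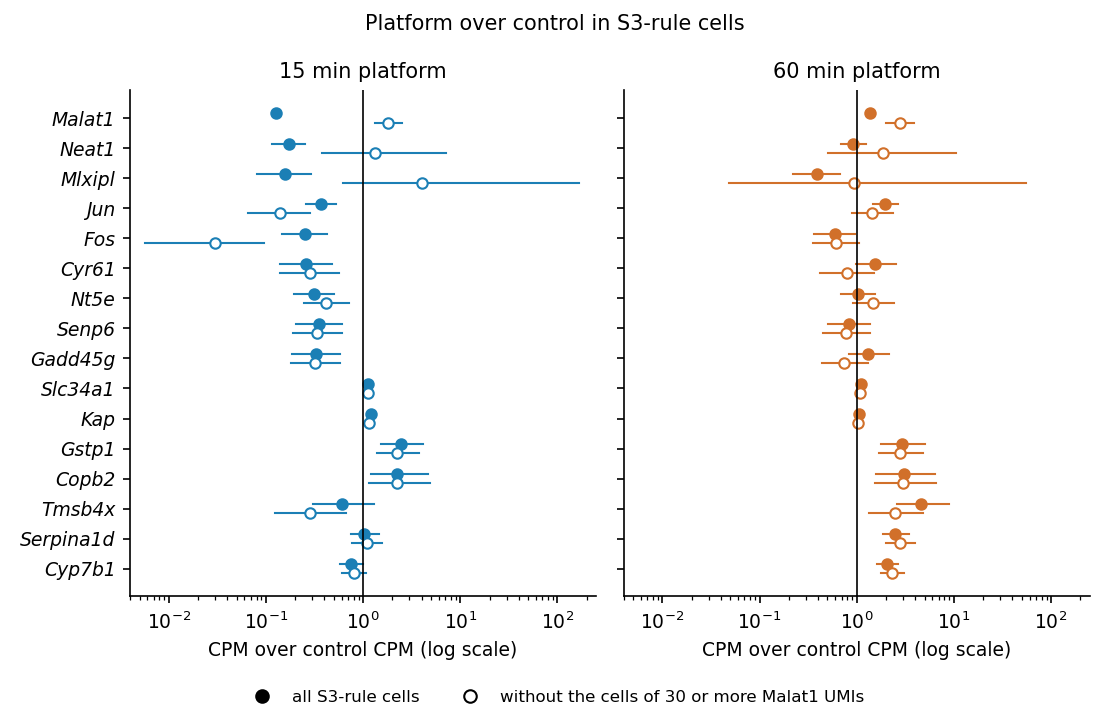
CPM of S3-rule cells at the 15 min interval (left) and the 60 min interval (right) over the control (log axis), with 95% counting intervals, for all cells (filled) and without the 21 cells of at least 30 Malat1 UMIs (open). Malat1, Neat1 and Mlxipl cross 1 at 15 min when those cells are left out, while Jun and Fos stay below 1 and Gstp1 and Copb2 above it.

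Transporters, brush border peptidases and metabolic enzymes are given as counts past 2-fold. Of all genes, 4.03% were higher and 8.3% lower at 15 min and 7.39% higher and 4.28% lower at 60 min. Of 16 measured organic ion transporters none was past 2-fold at 15 min and 2 were higher at 60 min, Slc22a13 and Slco4c1, the latter on 2 and 21 UMIs. Of 11 sugar, lactate and phosphate transporters 3 were higher at 60 min (Slc5a11, Slc5a8 and Slc20a2). Of 16 P450 and Ugt enzymes Cyp4a14 and Ugt1a7c were higher at both intervals, from 1 and 2 control UMIs, and Cyp7b1 at 60 min. Hadha, of mitochondrial fatty acid oxidation, was at 33.6, 69.3 and 74.3 CPM, the 1 of 19 fatty acid genes past 2-fold at either interval. Mt1, a metallothionein, had 3, 5 and 37 UMIs. No gene passed in either direction among 9 brush border peptidases, 11 gluconeogenesis genes and 10 endocytosis genes at either interval. Gatm was 4.05-fold and 5.00-fold the control, from the 4 control UMIs given above.

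Markers of other cells were low but not alike across libraries. The summed level of 13 markers of other nephron cells was 24.5, 24.3 and 461.8 CPM in the control, 15 min and 60 min libraries. All 5 members with a mean of at least 10 CPM were 2-fold or more higher at 60 min than in the control (7.39% of all genes). Slc12a1 (0, 1.80 and 39.3 CPM) and Aqp2 (6.11, 0 and 48.1 CPM) reached that mean only through the 60 min level. So did Umod, the main product of the thick ascending limb (6.11, 7.20 and 256.4 CPM). The filter therefore largely set the direction of these genes. All 13 markers together held 8 UMIs in the control, so the count of 5 is not read against the share of all genes. At 60 min 1 cell held 21 of the 27 Slc12a1 UMIs, and 1 cell held 30 of the 33 Aqp2 UMIs. Umod had 176 UMIs there, 151 of them in 1 cell, and stood at 36.9 CPM without it. Leukocyte and red cell markers summed to 140.6, 81.9 and 313.2 CPM, with Cd74 in 19 of 72, 22 of 190 and 49 of 127 cells. The 9 markers of endothelial and stromal cells summed to 6.11, 27.0 and 27.7 CPM. Both Ptprc and Pecam1 are 0 by the rule. These levels moved with the higher genes of the 60 min interval, and their part in the result was not tested.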

How the data were processed

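Droplet libraries of kidney (3) and mammary tumor (3) were available, and only the kidney matrix was used. The authors made the UMI counts with Cell Ranger 3.1.0 on mm10 and joined the libraries with an aggregation step that evens read depth, and deposited whole-number counts per gene and cell before filtering. Cells were assigned to libraries by barcode suffix. Cells with 200 to 3000 genes and at most 50% mitochondrial UMIs were kept. No doublet caller was run, so doublets were removed only through the gene limit. UMIs were summed per library and scaled to CPM of nonmitochondrial UMIs over 31053 genes. Folds between conditions used a pseudocount of 1 CPM, a limit of 2-fold and genes with a mean of at least 10 CPM. Intervals were exact Poisson (CPM), Clopper-Pearson (shares), Newcombe (share differences) and conditional binomial (ratios), all at 95%. With 1 library per condition no test or p-value was possible, and the scripts were tested on simulated data. Named genes were those of the rule, list members past 2-fold or with the highest CPM, and for each comparison the 10 with the largest fold each way at a mean of at least 50 CPM, without mt-, Gm and Rik models. Genes looked up after their values were seen are those of the Cyp7b1 and Malat1 divisions. The members and the lists were chosen with earlier results of these data known. Promoters came from RefSeq (GRCm38.p6). Alternatives covered scaling, filters, rule limits and omitted libraries. Python 3.11.15, numpy 2.4.6, scipy 1.17.1, pandas 2.3.3 and matplotlib 3.10.9 were used. Some genes that the naming rule picks are not reported here.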

Additional observations from a re-analysis of the deposited data

Results flagged for a closer look

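In 13 gene and condition pairs the S3-rule cells and the S2-rule cells of the same libraries differed from the control in opposite directions by at least 1.5-fold each. With 1 library per condition these differences were not tested. They are given without counting intervals or the number of genes screened, so the count of 13 cannot be set against counting error. Some rest on few cells: for Apob, 5 cells held 87.9% of the 33 control UMIs. At 15 min the ratio to the control in S3-rule cells was 0.6115 for Cubn, the endocytic receptor cubilin (1.57 in S2-rule cells), 0.6419 for Wls (1.51), 0.5174 for Paqr7 (1.82) and 0.6102 for Tgoln1 (1.69). It was 0.496 for Igf1r (1.504), 0.5603 for Atp11a (1.65), 0.6072 for Gpm6a (2.31), 0.3477 for Apob (2.81) and 0.4904 for Syne2 (2.02). It was 0.5483 for Galc (1.58), 0.5432 for C1qtnf3 (1.53) and 0.6236 for Abcc2, an apical efflux pump (1.53). At 60 min it was 0.606 for Cryab (2.20). Without the cells rich in Malat1, the 15 min ratio in S3-rule cells was 0.8 for Cubn, 0.817 for Wls, 0.684 for Igf1r, 0.713 for Atp11a, 0.785 for Syne2 and 0.947 for Abcc2. For Apob it was 1.07 in Cyp7b1- cells alone.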

How the results depend on the processing

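No paired analysis was possible because each condition was 1 library. Alternatives that left out the Malat1-rich cells, the Cyp7b1-bearing cells or the cell with the most Umod were chosen after seeing the data. With at most 20% mitochondrial UMIs, the share at 60 min over the control was 0.741 of kept cells in place of 1.05, and at 15 min 1.38 of segment-rule cells in place of 1.02. Genes higher at 15 min (246) numbered 150 with CPM of all UMIs, 427 with the mean over cells, 12 at a mean of at least 50 CPM and 793 at the 20% limit. Genes lower at 15 min (506) numbered 28 at 50 CPM, 265 without an upper gene limit and 272 without Malat1-rich cells. Genes higher at 60 min (451) numbered 841 with the mean over cells, 32 at 50 CPM and 1147 at the 20% limit. Genes lower at 60 min (261) numbered 171 with all UMIs, 407 with the mean over cells, 13 at 50 CPM, 662 at the 20% limit and 404 in Cyp7b1- cells. The median of the stress genes at 15 min (-0.85, log2) was -0.20 without an upper gene limit and 0.000737 at the 20% limit. That of the heat shock and early genes (-1.10) was -0.49 at 50 CPM, -0.41 without a gene limit and 0.00439 at the 20% limit, a reversal in sign, and at 60 min (0.81) it was -0.0815 at 50 CPM and 0.27 without a gene limit. Against S2-rule cells, genes higher in every library (75) numbered 29 at 50 CPM and 36 in Cyp7b1- cells, and genes lower (77) 20 at 50 CPM. Leaving out a library gave 83 without the control, 80 without the 60 min and 285 without the 15 min library for higher genes, and 109, 117 and 198 for lower ones. Fewer libraries have to agree in these counts. Against S1-rule cells, higher genes (347) numbered 186 and lower genes (547) 199 at 50 CPM, and 359 to 544 and 686 to 802 when a library was left out, with 544 without the 15 min library. At 15 min the log2 fold of Apob reversed to 0.0862 in Cyp7b1- cells, of Cyr61 to 0.0917 without a gene limit and of Jun to 0.83 at the 20% limit. Malat1 reversed to 2.92 at that limit and 0.84 without Malat1-rich cells, Mlxipl to 4.26 and 1.73, and Neat1 to 2.51 and 0.38, and Neat1 also to 0.11 without a gene limit. At 60 min Bend5 reversed to 0.0551, Elovl7 to -0.70 and Mlxipl to 4.52 at the 20% limit. The cause was not tested in any of these. Among the other values (shares per library, remaining list medians and folds of named genes), 992 were counted as unchanged. A named gene under 2-fold in the main result counted as unchanged whatever its later value, so its direction could differ. Another 55 gene folds no longer passed 2-fold. The 20 that moved were shares outside the main interval or list medians that shifted by at least 0.5 on the log2 scale.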
